A study of Mus musculus with 39 samples.

Results

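The interferon response genes described here are 40 genes that cells are known to switch on after interferon signalling. They were taken by gene symbol from a list of interferon response genes, chosen with earlier results of these data known. All 40 were found among the 24946 genes that the tables share. They were measured by RNA sequencing of endothelial cells captured with PECAM-coated beads from whole brains of C57BL/6 mouse pups. Each deletion was made with Cdh5-CreERT2, a tamoxifen-inducible Cre recombinase under the promoter of the endothelial gene Cdh5. The untreated Smad4 cohort held 5 mutants (Smad4f/f; Cdh5-CreERT2) and 5 wild types (Smad4f/f), and the Eng cohort 5 mutants (Engf/f; Cdh5-CreERT2) and 5 wild types (Engf/f), all at postnatal day 7 after 300 µg tamoxifen on days 1, 2 and 3. The Alk1 cohort held 5 mutants (Alk1f/f; Cdh5-CreERT2) and 5 wild types (Alk1f/f) at day 6, after 100 µg tamoxifen on day 4. The antibody cohort, at day 7 after the same 300 µg tamoxifen on days 1, 2 and 3, held 3 Smad4 mutants given 30 µg LC10, an inhibitor of angiopoietin-2, on days 2 and 4, and 3 Smad4 mutants and 3 Smad4 wild types given IgG, the control antibody, at that dose and on those days. The wild types carried the floxed alleles and no Cre, so loss of the gene and presence of Cre cannot be told apart.

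Interferons are secreted warning signals that cells release on sensing foreign or misplaced nucleic acid. Type I interferons bind the receptor IFNAR1/IFNAR2, whose kinases JAK1 and TYK2 switch on transcription factors. STAT2 and IRF9 are among these, and they act at a DNA element called ISRE in the promoters of interferon-stimulated genes. Many of the induced proteins act on viruses directly, some are sensors and transcription factors that feed the response, and some restrain it. Endothelial cells of the brain carry interferon receptors and respond to interferon from their surroundings.

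The proximal promoters of some of these genes carry the core of this element, and those of 6 genes are printed. Isg15, Ifit1, Rsad2 and Cxcl10 were taken from the genes with large differences between Smad4 mutants and wild types. Gbp3 and Trim25 were taken from the genes not called higher there. Whether the core goes with the fold changes was not tested. RefSeq promoter sequences (build GRCm38.p6, 250 bases before to 50 bases after a start site) were matched by symbol for 31 of the 40 genes. The core searched was GAAANNGAA on either strand, counting overlapping matches, and its letters are in capitals below. It lay in a promoter of 18 of the 31 genes (58.1%), against 9.76% of the 27025 genes in the table. Per promoter, 8.56% of all 32851 held it. There were 2 or more matches in 9 of the 31, against 0.736% of all genes. With a further A required after the core, 15 of the 31 genes held it, against 3.99% of all genes. A match of letters is a description and not a shown binding site. Cmpk2, Dtx3l, Ifit2, Irf7, Irf9, Lgals3bp, Oasl2, Parp12, Tap1 and Xaf1, which were called higher in Smad4 mutants, had no core in this window. Ifi35, Psmb8 and Psmb9, which were not called higher, had none either. Gbp2, Gbp3, Gbp7 and Trim25, which were not called higher, did hold it. For Gbp3 the table holds 2 promoters, and the one with the core is printed.
Isg15 (chr4:156200769-156201068, minus strand): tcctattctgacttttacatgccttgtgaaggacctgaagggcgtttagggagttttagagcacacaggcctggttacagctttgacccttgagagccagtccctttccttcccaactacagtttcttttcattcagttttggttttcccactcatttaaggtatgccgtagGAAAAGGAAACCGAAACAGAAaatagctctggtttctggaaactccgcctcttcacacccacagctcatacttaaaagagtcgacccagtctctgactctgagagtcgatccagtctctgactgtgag
Ifit1 (chr19:34640639-34640938, plus strand): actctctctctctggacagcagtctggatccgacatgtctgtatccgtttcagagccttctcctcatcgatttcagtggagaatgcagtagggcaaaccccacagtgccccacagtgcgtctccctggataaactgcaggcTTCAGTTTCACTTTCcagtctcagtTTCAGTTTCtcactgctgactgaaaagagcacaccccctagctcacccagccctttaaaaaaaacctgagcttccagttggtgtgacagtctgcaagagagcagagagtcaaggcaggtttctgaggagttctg
Rsad2 (chr12:26456403-26456702, minus strand): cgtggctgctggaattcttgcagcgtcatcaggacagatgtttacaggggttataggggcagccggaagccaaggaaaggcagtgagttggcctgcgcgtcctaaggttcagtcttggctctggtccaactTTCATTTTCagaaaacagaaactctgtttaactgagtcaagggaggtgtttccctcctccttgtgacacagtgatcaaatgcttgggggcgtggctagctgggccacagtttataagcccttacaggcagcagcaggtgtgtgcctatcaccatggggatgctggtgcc
Cxcl10 (chr5:92348840-92349139, minus strand): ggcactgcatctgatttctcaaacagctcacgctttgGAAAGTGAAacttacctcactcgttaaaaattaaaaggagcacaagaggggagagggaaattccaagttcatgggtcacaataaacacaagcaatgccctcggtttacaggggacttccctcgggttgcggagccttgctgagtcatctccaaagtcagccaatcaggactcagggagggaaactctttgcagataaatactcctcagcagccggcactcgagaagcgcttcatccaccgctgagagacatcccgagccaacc
Gbp3 (chr3:142559794-142560093, plus strand): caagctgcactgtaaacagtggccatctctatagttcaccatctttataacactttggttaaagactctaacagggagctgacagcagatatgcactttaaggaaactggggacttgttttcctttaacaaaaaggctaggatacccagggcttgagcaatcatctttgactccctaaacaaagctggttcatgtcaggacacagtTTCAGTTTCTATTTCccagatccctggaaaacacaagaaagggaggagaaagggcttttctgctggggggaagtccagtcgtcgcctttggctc
Trim25 (chr11:88999153-88999452, plus strand): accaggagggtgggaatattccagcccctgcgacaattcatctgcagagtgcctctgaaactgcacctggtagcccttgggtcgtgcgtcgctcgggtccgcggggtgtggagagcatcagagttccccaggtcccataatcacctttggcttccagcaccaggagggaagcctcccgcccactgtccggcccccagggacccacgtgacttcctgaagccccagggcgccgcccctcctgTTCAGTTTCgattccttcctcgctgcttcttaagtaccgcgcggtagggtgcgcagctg
Isg15 held 3 cores in a row on its own strand, each overlapping the next, at positions -78, -72 and -66 from the start site. In Ifit1 the 3 cores lay on the opposite strand, with first bases at -109, -103 and -84, the first pair overlapping. Rsad2 held 1 core at -119 and Cxcl10 held 1 core at -213. The overlapping cores of Gbp3 began at -44 and -38, and that of Trim25 at -9.

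Values are the authors' normalised expression values, and totals per library were 25.5M to 42.74M with 16125 to 17683 genes above 0. The 5 tables were normalised separately, so levels are compared within a table. If the commonest low value in a library stands for 1 fragment, 11.09M to 30.84M fragments lie behind each library. Smad4 itself was at 1676 to 1916 in untreated Smad4 mutants and 5258 to 5903 in their wild types, and Eng at 8613 to 11508 in Eng mutants, against 60151 to 70402 in Eng wild types. Acvrl1, the gene of ALK1, overlapped between Alk1 mutants (12441 to 15809) and wild types (14197 to 16755), so its value over the whole gene does not check those labels. Summed endothelial markers were 420466 to 579510 in mutants of the 3 untreated cohorts and 429241 to 635795 in their wild types, and all 10 endothelial markers passed the filter on low values in each comparison. Some column headers carry a code (L146, L219, L210 or L216) whose meaning the sources used here do not give. It is on 2 mutants and 2 wild types in the Smad4 and Alk1 tables, and in the Eng table L210 is on 4 mutants and 4 wild types and L216 on 1 of each. Library numbers in the untreated cohorts are column order only. Nothing in the labels ties a library to its own litter or day, so p-values measure the spread between these libraries.

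Several of the genes lie in clusters of relatives (GENCODE M21, mm10). Ifit2 (34550694 to 34576419), Ifit3 (34583531 to 34588731) and Ifit1 (34640871 to 34650009) follow each other on the plus strand of chromosome 19. The oligoadenylate synthetase genes Oas2 (120730333 to 120749853), Oas3 (120753098 to 120777661) and Oas1a (120896256 to 120907521) share the minus strand of chromosome 5, where Cxcl10 lies as well (92346638 to 92348889). Gbp7, Gbp3 and Gbp2 stand between 142530342 and 142638008 on chromosome 3, and Rsad2 (26442746 to 26456452) is a neighbour of Cmpk2 on chromosome 12. On chromosome 16 Dtx3l (35926511 to 35939151) overlaps Parp9 (35938470 to 35972605) on the opposite strand, and on chromosome 17 Psmb9 (34181987 to 34187764) overlaps Tap1 (34187553 to 34197225). Isg15 is on chromosome 4 (156199424 to 156200818), Irf7 on chromosome 7 (141262706 to 141266481), Bst2 on chromosome 8 (71534255 to 71537456) and Trim25 on chromosome 11 (88999376 to 89020293). Reads of close relatives or of overlapping neighbours may have been split or shared between genes, since the labels and files describe neither the counting rule nor its use of strand.

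In wild-type brain endothelium the 40 genes ran over a wide range of levels. Per kilobase of exon, the untreated Smad4 wild types (n = 5) were highest for Trim25, a ubiquitin ligase of the RIG-I pathway (1580.0 ± 122 SD), and Bst2, the virus-tethering protein tetherin (1520.0 ± 227). Those 2 overlap within their spread. Gbp3, a guanylate-binding protein, followed at 823 ± 101, and Samd9l, Isg15, Ifi35, Lgals3bp and Gbp7 lay between 465 and 499 per kilobase, with SDs of 44.1 to 64.4, and did not differ beyond their spread. At the low end were Cxcl10 (24.5 ± 7.46), Oas2 (22.2 ± 12.8), Mx1 (8.94 ± 4.59), Zbp1 (4.15 ± 1.33) and Oas3 (0.74 ± 0.407). Oas3 was too low to test in 3 of the 4 comparisons of mutants with wild types, and Mx1 and Zbp1 in the Alk1 cohort.

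To compare libraries as a whole, an interferon score was taken as the mean of log2(value + 2) over the 40 genes. Untreated Smad4 mutants scored 9.67, 10.45, 9.28, 10.39 and 9.56, and their wild types 8.91 to 9.15. All 5 mutants stood above all 5 wild types, and mutants 2 and 4 above the other 3 mutants. Alk1 mutants scored 9.09, 8.86, 8.84, 9.10 and 9.21, against 9.17, 9.10, 9.31, 8.71 and 8.71 in Alk1 wild types, and those groups overlapped. Eng mutants scored 10.49, 10.23, 10.29, 10.45 and 10.21, against 9.64, 9.18, 9.23, 9.51 and 10.44 in Eng wild types. Eng wild type 5, the one with code L216, lay among the mutants.

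**Figure D1:**
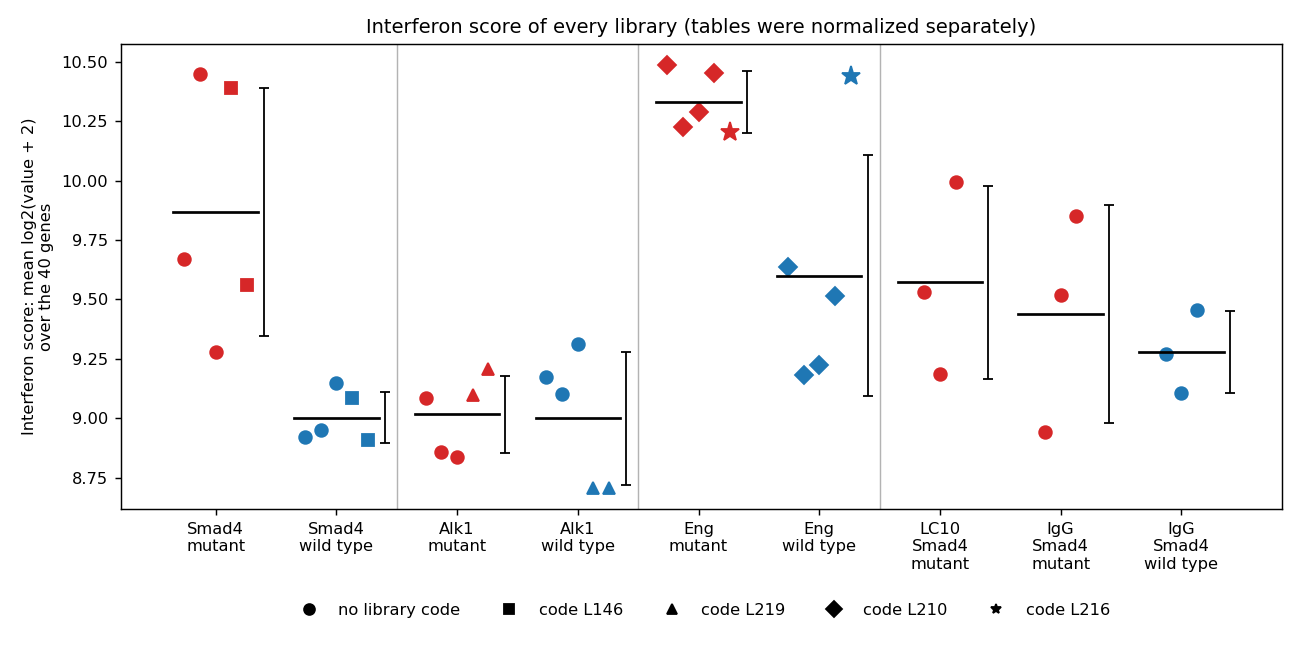
Interferon score (mean log2(value + 2) over the 40 genes) of each library, mutants in red and wild types in blue, with the mean (bar) and SD (whisker) of each group and marker shape for the code in the column header. LC10 and IgG libraries are shown after median-of-ratios scaling. Untreated Smad4 mutants lie above all their wild types, Eng wild type 5 (10.44) lies among the Eng mutants, and Alk1 groups overlap.

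Deletion of Smad4 in untreated pups went with a broad rise of the list. Of the 39 genes tested, 29 were higher and 1 (Trim25) lower in mutants, against 17.2% higher and 15.8% lower of all 14012 genes tested. Log2 fold changes of the genes ran from -0.27 to 1.92 with a median of 0.74, beside -0.01 over all genes. All mutants were above all wild types in 18 of the 39 genes, against 12.6% of all genes. The count of 29 became 20, with 2 lower and a median of 0.46, without the mutants 2 and 4 that stood highest (9.47% of all genes higher). It became 15 with only the 3 mutants and 3 wild types that have no code (9.46% of all genes higher). With the mean log2(value + 2) of neuron and glia markers as a term in the fit it was 7 (8.49% of all genes higher), with a median of 0.69. Adjusted p-values throughout are limma's, on log2(value + 2), with Benjamini-Hochberg adjustment over all genes tested, and fold changes are mutant over wild type with their SE.

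Among the effectors all 3 genes of the IFIT family, whose proteins bind viral RNA, rose. Ifit1 was at 595, 1334, 382, 1072 and 561 in Smad4 mutants, against 181, 196, 268, 257 and 225 in wild types. Every mutant was above every wild type, at 1.67 ± 0.30 on the log2 scale (adjusted p = 0.00191). Isg15, a ubiquitin-like protein that is attached to other proteins, was at 945, 1952, 371, 2368 and 908 in Smad4 mutants and at 397, 305, 366, 424 and 360.4 in wild types. Mutants 2 and 4 were highest and mutant 3 lay within the wild-type range (1.55 ± 0.41, adjusted p = 0.0151). Rsad2, the antiviral enzyme viperin, had 448, 997, 258, 1216 and 417 in Smad4 mutants, against 172, 115, 189, 163 and 129.6 in wild types, with no overlap (1.89 ± 0.38, adjusted p = 0.00344). Bst2 had 2272, 4347, 1550.0, 4436 and 2456 in Smad4 mutants, against 1092, 1359, 1454, 1319.9 and 1655 in wild types, and rose by 1.03 ± 0.26 (adjusted p = 0.0128), with mutant 3 inside the wild-type range. In all, 14 of the 18 effectors tested rose and none fell, with a median of 1.16. Oasl2 (1.52 ± 0.27) and Oas1a (1.17 ± 0.29) of the oligoadenylate synthetase family, which senses double-stranded RNA, were among them. Mx1 (0.95 ± 0.39, adjusted p = 0.0824), Mx2 (0.62 ± 0.29), Oas2 (0.86 ± 0.45) and Ifi35 (0.27 ± 0.19) did not pass.

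Sensors and regulators moved the same way in the Smad4 cohort with 1 exception. All 4 sensors of viral nucleic acid rose. Zbp1, a sensor of left-handed nucleic acid, had the largest fold change of the list at low levels, 24.9, 120.2, 29.3, 164 and 46.4 in Smad4 mutants and 7.7, 20.5, 13.1, 15.9 and 16.2 in wild types (1.92 ± 0.51, adjusted p = 0.0162). Ifih1, the RNA sensor MDA5, was at 2096, 3062, 1481, 2916 and 1882 in Smad4 mutants, against 1234, 1474, 1412, 1553 and 1421 in wild types, with mutant 3 within the wild-type range (0.64 ± 0.18, adjusted p = 0.0186). Irf7, the transcription factor that amplifies interferon production, reached 1203, 2721, 703, 3074 and 1242 in Smad4 mutants, against 511, 534, 580.0, 698 and 619 in wild types, mutant 3 being just above the highest wild type. It rose by 1.40 ± 0.34 (adjusted p = 0.011). Stat2, a transcription factor downstream of the receptor, had 1968, 2929, 1736, 2399 and 1844 in Smad4 mutants and 1332, 1449, 1515, 1578 and 1388 in wild types, without overlap, and rose by 0.56 ± 0.13 (adjusted p = 0.00773). Irf9, its partner (0.59 ± 0.13), and Usp18, a protease that removes ISG15 and restrains the receptor (1.25 ± 0.30), rose as well. Trim25 fell, with 6721, 7447, 7675, 8239 and 7639 in Smad4 mutants, against 8278, 9098, 8456, 9786 and 9733 in wild types, all mutants below all wild types (-0.27 ± 0.07, adjusted p = 0.0128).

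The ADP-ribosylation genes rose in Smad4 mutants while the guanylate-binding proteins did not pass. All 4 genes of the PARP and DTX3L group were higher, Parp14 with 3299, 4708, 2238, 3246 and 2122 in Smad4 mutants, against 1781, 2065, 2174, 1825 and 1526 in wild types (0.68 ± 0.20, adjusted p = 0.0216). Mutant 5 lay within the wild-type range, and the Parp14 call was lost without wild type 5 (adjusted p = 0.0516). None of the 3 guanylate-binding proteins, GTPases that attack vacuoles holding pathogens, was called. Gbp3 had 3441, 4605, 2181, 4812 and 3071 in Smad4 mutants and 2262, 2587, 2564, 3112 and 2907 in wild types, overlapping ranges (0.38 ± 0.19, adjusted p = 0.142). In antigen processing Tap1, a peptide transporter for MHC class I, rose by 1.09 ± 0.20, while Psmb8, an immunoproteasome subunit, was at 567, 860.0, 375, 1069 and 589 in Smad4 mutants and 476, 481, 556, 433 and 392 in wild types and did not pass (0.48 ± 0.24, adjusted p = 0.137). Without mutant 3, Gbp3 (0.55, adjusted p = 0.0129) and Psmb8 (0.68, adjusted p = 0.0176) were called higher. Array weights gave the same calls (0.51, adjusted p = 0.0265, and 0.60, adjusted p = 0.0324). With the neuron and glia level in the fit Gbp3 (0.12, adjusted p = 0.767) and Psmb8 (0.14, adjusted p = 0.768) stayed uncalled. Both secreted genes rose. Cxcl10, a chemokine that draws T cells, had 121, 187, 131, 268 and 147 in Smad4 mutants, against 61.1, 29.5, 47.6, 69.9 and 67.8 in wild types, with every mutant above every wild type (1.60 ± 0.28, adjusted p = 0.00177). Lgals3bp, a secreted glycoprotein, rose by 0.59 ± 0.19.

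The size of the rise differed between Smad4 mutants in a shared order. Mutants 2 and 4 held the 2 highest places among the 5 mutants in 33 of the 40 genes, and mutant 3 was the lowest mutant in 28. Mutant 2 was above all 5 wild types in 39 genes and mutant 3 in 22. Shares of all genes beside these counts are not given here. Mutant 2 has no code and mutant 4 has L146, and their summed microglia markers were 23183 and 9813, against 6520 to 25448 over all Smad4 mutants and 11109 to 29161 in the wild types. None of the 12 microglia markers was called in this cohort. Markers of neurons (6 of 8 tested lower), oligodendrocytes (4 of 8 lower), pericytes and smooth muscle (6 of 9 lower), erythroid cells (4 of 5 lower, sums of 11533 to 18686 in mutants and 31173 to 44938 in wild types) and lymphocytes (2 of 4 lower) were lower in Smad4 mutants, and in bulk samples fewer cells of a type and less RNA per cell cannot be told apart. With the neuron and glia level in the fit, Ifit1 (1.32, adjusted p = 0.0295), Rsad2 (1.48, 0.0491), Cxcl10 (1.37, 0.0224) and Trim25 (-0.35, 0.0126) passed. Isg15 (0.99, adjusted p = 0.192), Irf7 (0.91, 0.154), Bst2 (0.67, 0.171), Zbp1 (1.16, 0.207), Stat2 (0.46, 0.0814), Ifih1 (0.43, 0.207) and Parp14 (0.72, 0.0840) did not.

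**Figure D2:**
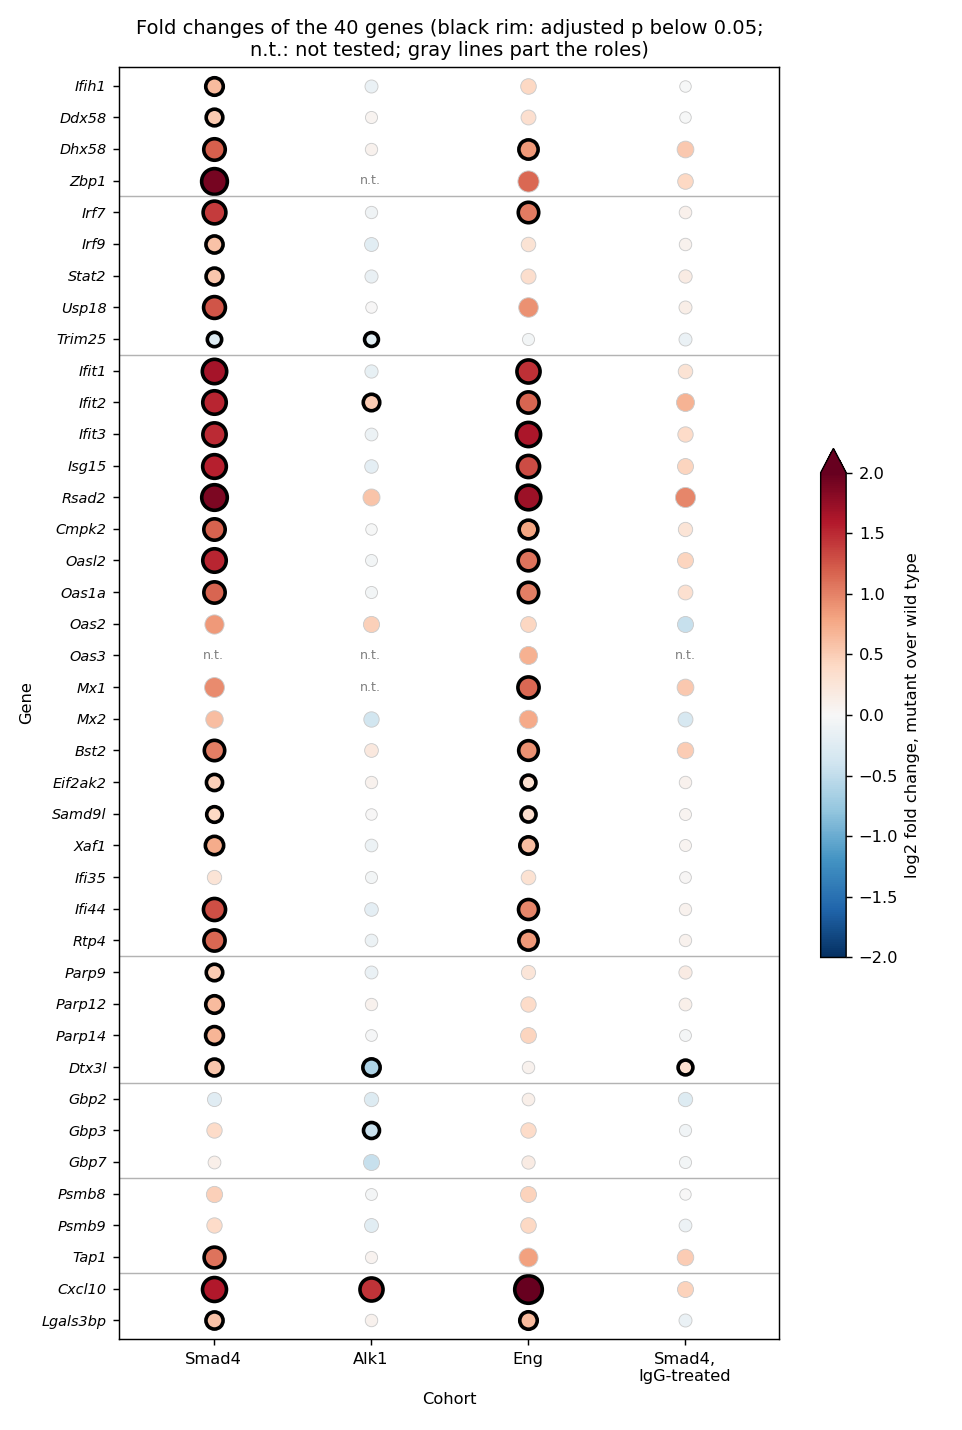
Log2 fold changes (mutant over wild type) of the 40 genes in 4 cohorts, coloured and sized by the fold change, with a black rim where the adjusted p was below 0.05. The Smad4 and Eng columns are mostly red with 29 and 19 genes called higher, and the Alk1 and IgG-treated Smad4 columns are pale with 2 and 1 called higher.

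Loss of endoglin, the co-receptor encoded by Eng, went with higher effector and chemokine genes, with 1 wild-type library at the level of the mutants. Among all 40 genes tested, 19 were called higher and none lower, with 12.4% of all 14350 genes called higher and 9.08% lower. At an unadjusted p below 0.05, 30 of the 40 passed, beside 4762 of all 14350 genes. The median log2 fold change was 0.67, beside -0.01 over all genes. All mutants were above all wild types in 5 of the 40 genes, near the 10.2% of all genes. Without Eng wild type 5 the count was 36 higher with a median of 0.90 (12.9% of all genes higher). Without wild type 2 or wild type 3 it was 12 (10.4% and 10.5% of all genes higher). Effectors made up most of the calls, 15 of 19.

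Ifit1 was at 1297, 1008, 1127, 1207 and 735 in Eng mutants, against 508, 188, 249, 308 and 1122 in wild types, and rose by 1.46 ± 0.39 (adjusted p = 0.0194). The mutants were above the first 4 wild types and wild type 5 lay inside their range. The call was lost without wild type 3 (adjusted p = 0.0520). Ifit3 gave 1058, 777, 803, 1005 and 727 in Eng mutants, against 306, 182, 162, 215 and 822 in wild types (1.64 ± 0.36, adjusted p = 0.0066), with the same order. Rsad2 had 1116, 1037, 1112, 1225 and 888 in Eng mutants and 406, 230.4, 213, 251 and 740.2 in wild types, the mutants above all wild types (1.71 ± 0.29, adjusted p = 0.00129). Isg15 was at 2167, 1337, 1686, 1694 and 1248 in Eng mutants and 762, 375, 460.4, 558 and 1546 in wild types (1.30 ± 0.32, adjusted p = 0.0117), again with wild type 5 in the range of the mutants. Bst2 had 4913, 3944, 4172, 4421 and 3816 in Eng mutants, against 2324, 1884, 1819.7, 2055 and 3374 in wild types (0.92 ± 0.14, adjusted p = 0.000785). For Bst2 wild type 5 was between the groups, below every mutant. Irf7 rose by 1.04 ± 0.29 (adjusted p = 0.022), with 2182, 1898, 1933, 2235 and 1676 in Eng mutants and 1124, 581, 611, 956 and 2124 in wild types, and its call was lost without wild type 2 (adjusted p = 0.0532), wild type 3 (0.0560) or mutant 4 (0.0513).

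Cxcl10 had the largest fold change of the list in the Eng cohort, 213, 224, 189.7, 244 and 343 in mutants against 40.6, 28.4, 65.4, 34.9 and 91.6 in wild types (2.27 ± 0.29, adjusted p = 0.000202). Here wild type 5 was below all 5 mutants. The genes that did not pass in the Eng cohort included Ifih1 (0.41 ± 0.15, adjusted p = 0.0688), Stat2 (0.35 ± 0.19, adjusted p = 0.228), Parp14 (0.44 ± 0.16, adjusted p = 0.0717), Psmb8 (0.46 ± 0.19, adjusted p = 0.115) and Gbp3 (0.39 ± 0.20, adjusted p = 0.209). For Gbp3 the values were 6373, 4611, 5204, 5046 and 5006 in Eng mutants and 4139, 2869, 3248, 3587 and 7264 in wild types, and wild type 5 was the highest library. Psmb8 showed this order as well, with 984, 796, 731, 838 and 875 in Eng mutants and 579, 456, 539, 538 and 1098 in wild types. Stat2 had 3281, 2545, 3102, 3034 and 2863 in Eng mutants and 2218, 1888, 1712, 2233 and 4145 in wild types, again with wild type 5 on top. Each of these 5 genes was called higher without that library. Ifih1 was then at 0.56 (adjusted p = 0.000837) and Gbp3 at 0.60 (adjusted p = 0.00253).

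Eng wild type 5 was above the other 4 wild types in 38 of the 40 genes and above all 5 mutants in 21. How often this library stood highest over all genes is not given here. Those 21 included all 3 guanylate-binding proteins and all 3 antigen-processing genes, together with 4 of the 5 regulators (Irf9, Stat2, Usp18 and Trim25). Eng itself was at 70402 in this library, the highest value of the cohort, against 8613 to 11508 in Eng mutants, so the library went with its wild-type label. Its summed microglia markers (13957) were near those of Eng mutants 1 (13729) and 5 (14786). Eng mutants 2, 3 and 4 were at 20160, 26465 and 31072, and the other wild types at 21693 to 34274. None of the 12 microglia markers was called between Eng mutants and wild types, and the part of these cells in the levels of wild type 5 was not tested. Only 1 mutant shares its code, L216, so library code and this library cannot be told apart.

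**Figure D3:**
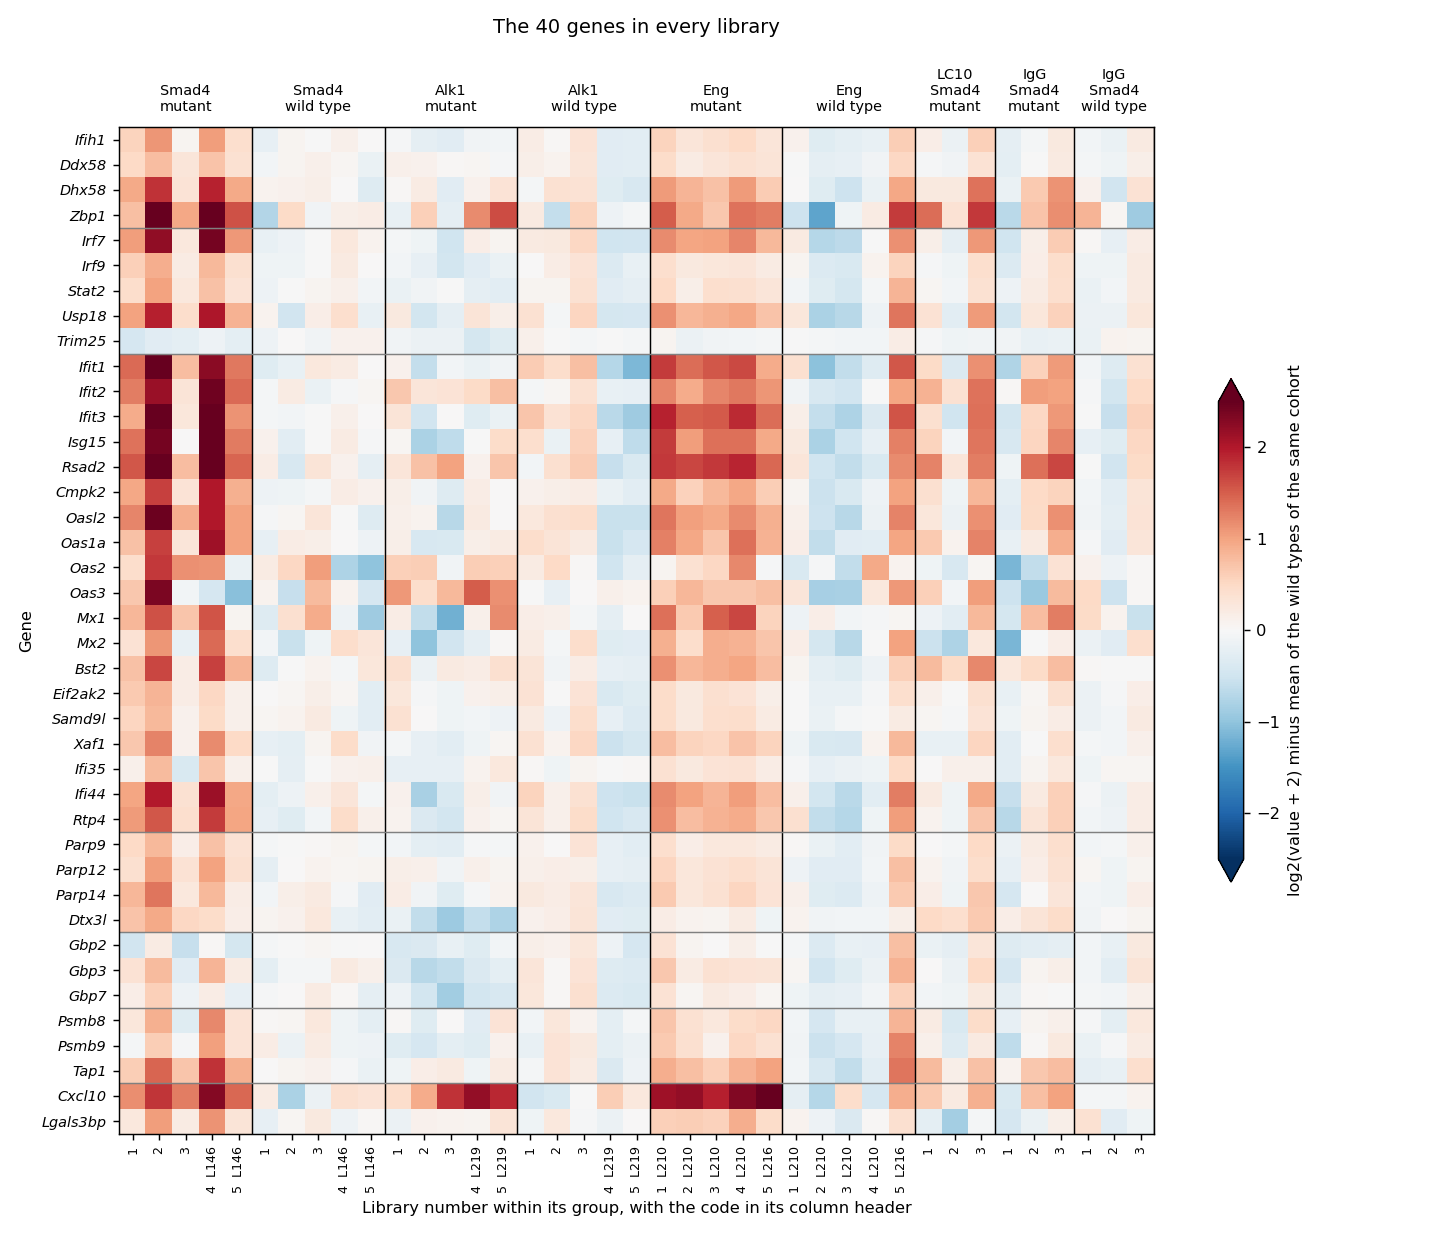
The 40 genes (rows, grouped by role) in each of the 39 libraries (columns), as log2(value + 2) minus the mean of the wild types of the same cohort. Smad4 mutants 2 and 4, all Eng mutants and Eng wild type 5 are red over most rows, and Cxcl10 is red in the mutants of all 3 untreated cohorts.

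In the Alk1 cohort the list as a whole did not move in 1 direction. Of 37 genes tested, 2 were higher and 3 lower in mutants, against 17.5% higher and 15.7% lower of all 13635 genes, and the median was -0.06 beside -0.01 over all genes. Cxcl10 rose here too, with 44.4, 62.8, 118, 156 and 123 in Alk1 mutants, against 22.5, 24.2, 31.8, 50.3 and 39 in wild types (1.45 ± 0.35, adjusted p = 0.00704). Mutant 1 was within the wild-type range and the other 4 mutants were above it, and the call was lost with only the libraries that have no code (1.35, adjusted p = 0.0536). Ifit2, an RNA-binding relative of Ifit1, had 510.2, 393, 403, 445 and 539.9 in Alk1 mutants, against 308, 332, 419, 281 and 275 in wild types (0.51 ± 0.13, adjusted p = 0.0123), and mutants 2 and 3 were below wild type 3. The Ifit2 call was lost with only the libraries that have no code (0.30, adjusted p = 0.261) and in the joint fit of the untreated cohorts (0.51, 0.128). Dtx3l, the ubiquitin ligase that pairs with PARP9, fell to 1572, 1147, 932, 1159 and 1032 in Alk1 mutants, against 1890.0, 1972, 2180.4, 1435 and 1425 in wild types (-0.61 ± 0.15, adjusted p = 0.00909). Mutant 1 lay within the wild-type range of Dtx3l and the other 4 mutants were below it. Gbp3 was at 2299, 1816, 1920.0, 2277 and 2486 in Alk1 mutants and 3612, 2981, 3745, 2346 and 2316 in wild types (-0.45 ± 0.15, adjusted p = 0.031), and Trim25 at 8439.9, 8099.6, 8082, 6641 and 7294 in Alk1 mutants and 9750.2, 8929.6, 8664, 8876 and 8705 in wild types (-0.22 ± 0.07, adjusted p = 0.0313). The Trim25 and Gbp3 calls each ended when any of several single libraries was left out. For Gbp3 these were wild types 1, 2 and 3 and mutants 2 and 3 (adjusted p 0.0593 to 0.0782 over these), and for Trim25 wild types 1, 2 and 4 and mutants 4 and 5 (0.0550 to 0.0802). The count lower was 1 without wild type 1 or wild type 2, and 5 without wild type 5, where 13% to 13.2% of all genes were lower.

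The other 32 genes tested in that cohort did not pass, with fold changes from -0.46 to 0.57 on the log2 scale. Ifit1 had 239, 147, 212, 198 and 209 in Alk1 mutants and 348, 301, 373, 136 and 101 in wild types, so that wild types 1 to 3 were above all mutants and wild types 4 and 5 below them (-0.16 ± 0.33, adjusted p = 0.745). Isg15 (-0.19 ± 0.27), Irf7 (-0.08 ± 0.20), Stat2 (-0.15 ± 0.11), Ifih1 (-0.14 ± 0.12), Bst2 (0.21 ± 0.13), Psmb8 (-0.04 ± 0.14) and Parp14 (-0.03 ± 0.15) did not pass, with adjusted p of 0.227 to 0.889. Neutrophil markers were higher in Alk1 mutants (3 of 3 tested, sums of 77 to 245 in mutants and 24 to 62 in wild types), as were 4 of 7 markers of monocytes and border macrophages (10574 to 12390 in mutants, 5831 to 9172 in wild types). Their part in the Cxcl10 result was not tested.

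In the Alk1 cohort the sign of the fold changes split by library code. Both wild types with code L219 were below the 3 wild types without a code in 31 of the 40 genes and above them in 2. The shares of all genes with either order are not given here. Within L219 (2 mutants, 2 wild types) the fold change was positive for 34 of 37 genes, with a median of 0.33, and within the libraries without a code (3 and 3) it was positive for 5 of 37, with a median of -0.34. In a fit with a genotype effect per code, 3 genes were called higher and 1 lower in L219 (7.41% higher and 5.32% lower of all genes), and 1 higher and 14 lower without a code (13.2% and 10.9%). Ifit1 was at 0.79 in L219 (adjusted p = 0.0622) and at -0.79 without a code (adjusted p = 0.0179). A fit of the 4 L219 libraries alone called 20 genes higher (16.5% of all genes), among them Ifit1 (adjusted p = 0.0239), Irf7 (0.00412), Isg15 (0.0494) and Bst2 (0.00530). In the fit with an effect per code Cxcl10 rose in both, by 1.60 in L219 (adjusted p = 0.0318) and 1.35 without a code (adjusted p = 0.0182). With only the libraries without a code it was not called (adjusted p = 0.0536). The difference between the 2 codes itself was called for none of the 37 genes (0% of all genes higher and 0% lower), and at an unadjusted p below 0.05 it passed for 24, all higher in L219, against 1.44% of all genes. With code as a term in the fit, 3 genes were called higher and 4 lower (19.3% and 18.3% of all genes), with a median of -0.06.

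In the Smad4 cohort both codes gave a rise. The median was 0.94 within L146, where 19 genes were called higher and 1 lower (17.8% and 18.1% of all genes), and 0.70 among libraries without a code, where 17 were higher and 1 lower (13.5% and 10.5%). The difference between these codes was called for none of the 39 genes (0.271% of all genes higher and 0.0357% lower). None passed at an unadjusted p below 0.05, against 6.33% of all genes higher and 6.82% lower. In the Eng cohort 37 of 40 genes were called higher and none lower within L210 (12.5% and 9.39% of all genes), with a median of 0.90. The single L216 mutant was below the single L216 wild type in 34 of 40 genes, with a median of -0.31, while Cxcl10 was higher in that mutant by 1.88 on the log2 scale. With 1 library of each genotype these L216 values are given without a test.

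**Figure D4:**
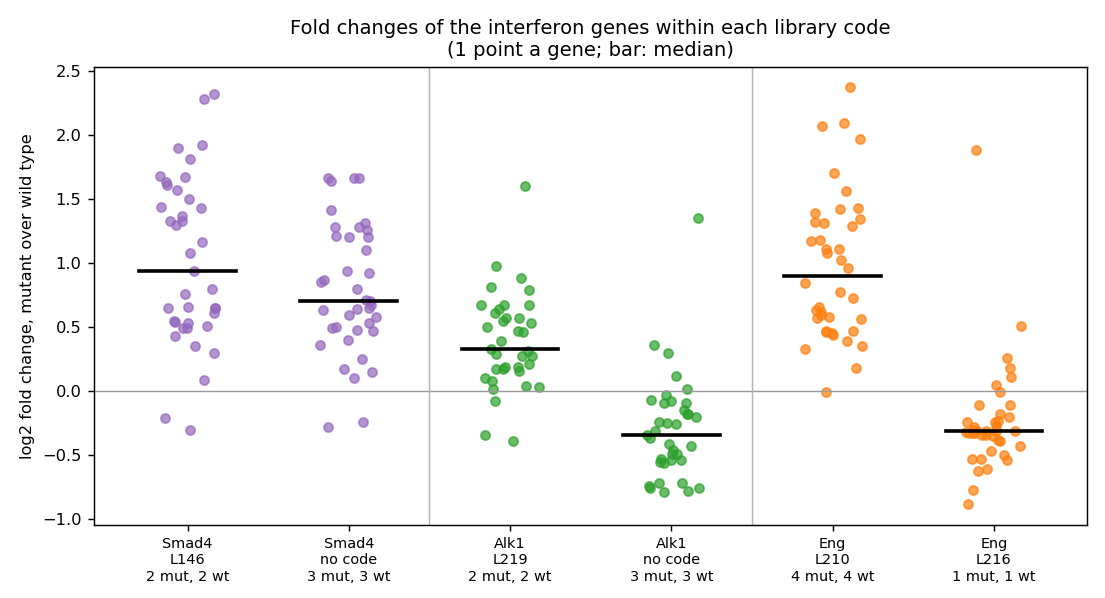
Log2 fold changes (mutant over wild type) of the tested interferon genes within each library code of the 3 untreated cohorts, 1 point a gene, with the median as a bar. Both Smad4 codes lie above 0 (medians 0.94 and 0.70), Alk1 is above 0 in L219 (0.33) and below it without a code (-0.34), and Eng is above 0 in L210 (0.90) and below it in L216 (-0.31).

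Cohorts were compared through the difference of their effects in 1 fit of the 30 untreated libraries. The Alk1 pups were a day younger and had another tamoxifen schedule, so gene, age and dosing cannot be told apart there. The Smad4 effect was larger than the Alk1 effect for 18 of 40 genes and smaller for none, with 7.77% of all 14701 genes called higher and 8.15% lower, and the median difference was 0.83. Ifit1 differed by 1.83 ± 0.54 (adjusted p = 0.0194), Isg15 by 1.73 ± 0.53 (adjusted p = 0.023), Ifit3 by 1.61 ± 0.55 (adjusted p = 0.0453), Oasl2 by 1.57 ± 0.42 (adjusted p = 0.00962) and Dtx3l by 1.17 ± 0.19 (adjusted p = 9.82e-05). For Cxcl10 the difference was 0.14 ± 0.46 (adjusted p = 0.873). The count was 9 without Smad4 mutant 2, 10 without Smad4 mutant 4, 11 without Alk1 wild type 2 or Alk1 wild type 3, and 27 without Eng wild type 5, which enters the estimate of the spread. Over these fits 6.66% to 7.79% of all genes were called higher.

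Between Smad4 and Eng no gene of the list differed in either direction by the limma test, with 4.16% of all genes called higher and 3.88% lower. At an unadjusted p below 0.05, 2 of the 40 passed, beside 3383 of all 14701 genes. The median difference was 0.20, and 28 of the 40 differences were positive. Ifit1 differed by 0.21 ± 0.54 and Cxcl10 by -0.68 ± 0.46, with SEs that leave room for a difference of either sign. Of the 29 genes higher in Smad4 mutants, 18 (62.1%) were among the 19 higher in Eng mutants, which is 94.7% of those. Since 29 of the 39 genes tested were called in Smad4, a large overlap follows in part from that count. The overlap over all genes is not given here. Mx1 was called in Eng alone, at -0.20 ± 0.51 for the difference (adjusted p = 0.857).

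The Alk1 effect was smaller than the Eng effect for 5 of 40 genes (Dtx3l, Gbp3, Ifit1, Ifit3 and Mx2) and larger for none, with 7.80% of all genes called higher and 6.72% lower. The median difference was -0.68, and 24 of the 40 passed at an unadjusted p below 0.05, beside 4021 of all 14701 genes. Ifit3 differed by -1.76 ± 0.55 (adjusted p = 0.0313), Ifit1 by -1.62 ± 0.54 (adjusted p = 0.0426), Mx2 by -1.13 ± 0.39 (adjusted p = 0.0489) and Gbp3 by -0.84 ± 0.28 (adjusted p = 0.0448). This count rests on single libraries. It was 27 without Eng wild type 5, 10 without Alk1 wild type 5, 9 without Alk1 wild type 4, and 8 without Smad4 mutant 2 or Smad4 mutant 3. It was 3 without Eng wild type 1, Eng mutant 5 or Smad4 wild type 3, and 2 without Alk1 mutant 3, Alk1 mutant 4 or Eng mutant 3. It was 1 without Alk1 wild type 1, 2 or 3, Alk1 mutant 2, Eng wild type 2, 3 or 4, or Eng mutant 1 or 4. Over all fits without 1 library, 5.22% to 8.92% of all genes were called lower. Dividing each library by its total gave 14 genes of the list, with 9.66% of all genes lower.

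Under control IgG the Smad4 deletion moved 1 of the 39 tested genes, Dtx3l, against 13.2% of all 14052 genes called higher and 10.8% lower. None was lower, and 1 was without mutant 3 or wild type 1 (7.23% and 7.59% of all genes lower). The median log2 fold change was 0.10, beside 0.00 over all genes. At an unadjusted p below 0.05, 2 of the 39 passed, beside 5519 of all 14052 genes. Dtx3l was at 1827, 2028 and 2254 in IgG-treated mutants, against 1535, 1649 and 1704 in IgG-treated wild types, without overlap (0.32 ± 0.09, adjusted p = 0.0274). Ifit1 had 195, 492 and 692 in IgG-treated mutants and 314, 264 and 435 in IgG-treated wild types. Mutant 1 was below all wild types and mutants 2 and 3 above them (0.29 ± 0.47, adjusted p = 0.675). Isg15 had 393, 749.9 and 1208 in IgG-treated mutants and 446, 418 and 747 in IgG-treated wild types (0.45 ± 0.43, adjusted p = 0.475). Bst2 was the other gene whose groups did not overlap with mutants higher, at 1767, 2068 and 2536 in IgG-treated mutants and 1494, 1475 and 1468 in IgG-treated wild types (0.51 ± 0.17, adjusted p = 0.0573). That count of 2 compares with 22.2% of all genes. Bst2 passed with the 6 IgG libraries alone (adjusted p = 0.0286), with the replicate block (0.0271) and with array weights (0.0160). Cxcl10 (0.46 ± 0.33), Irf7 (0.10 ± 0.34), Stat2 (0.17 ± 0.16), Ifih1 (-0.01 ± 0.18), Psmb8 (0.00 ± 0.21), Gbp3 (-0.07 ± 0.21) and Parp14 (-0.04 ± 0.21) did not pass either.

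Those 3 IgG-treated mutants differed from each other in a shared order. Mutant 1 was the lowest of the 3 in 38 of 40 genes and below all 3 wild types in 25, and mutant 3 was the highest in 37 and above all 3 wild types in 32. Shares of all genes with these orders are not given here. Smad4 itself was at 3030 in mutant 1, 2099 in mutant 2 and 1817 in mutant 3, against 5625 to 5975 in the IgG-treated wild types. Without mutant 1, 6 of the 39 genes were called higher, near the 14.8% of all genes. Cxcl10 at 0.87 (adjusted p = 0.0221) and Bst2 at 0.63 (adjusted p = 0.0305) were among the 6. Without mutant 2, mutant 3, wild type 1 or wild type 2 none was called higher (7.35% to 9.66% of all genes). Without LC10-treated mutant 2 or 3, which enter the estimate of the spread, 2 were called higher (11.6% and 11.9% of all genes). Microglia markers were lower in IgG-treated mutants (11 of 12 called, sums of 13388 to 21622 in mutants and 22573 to 44616 in wild types). With the mean log2(value + 2) of those markers in the fit no gene was called higher (2.46% of all genes), and Dtx3l was at 0.29 (adjusted p = 0.309).

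The effect of the deletion under IgG was not shown to differ from that in untreated pups. For the difference of the 2 effects no gene of 39 was called, with 0.00688% of all 14535 genes higher and 0% lower. At an unadjusted p below 0.05, 13 of the 39 passed, beside 954 of all 14535 genes. The median difference was -0.66, beside 0.02 over all genes, and 38 of the 39 differences were negative. Ifit1 was at -1.37 ± 0.56 (adjusted p = 0.742) and Zbp1, the most negative, at -1.51 ± 0.86 (adjusted p = 0.812). Interferon scores in that cohort were 8.94, 9.52 and 9.85 in IgG-treated mutants, against 9.27, 9.11 and 9.46 in IgG-treated wild types.

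LC10-treated Smad4 mutants were compared with IgG-treated Smad4 mutants. Since the LC10 table was normalised separately, the libraries were put on 1 scale by the median of ratios, and the comparison is given without a test. Scores were then 9.533, 9.188 and 9.996 in LC10-treated mutants, against 8.94, 9.52 and 9.85 in IgG-treated mutants, and the groups overlapped. The median difference over the genes was 0.10 (0.00 over all genes), with 32 genes higher and 7 lower under LC10, but on the values as deposited it was -0.28 (-0.37 over all genes), with 2 higher and 38 lower. None of the 40 genes differed by a log2 of 1 or more in either direction, while 1.61% of 14706 genes were that much higher and 0.721% that much lower under LC10. After scaling Ifit1 was at 463, 257 and 735 in LC10-treated mutants, with mutant 3 above every IgG-treated library of the cohort. Isg15 was at 761, 498 and 1319 in LC10-treated mutants, and Bst2 at 2572, 2051 and 3419.7. Cxcl10 was at 124, 91.5 and 147 in LC10-treated mutants, against 59.6, 133 and 159 in IgG-treated mutants. Mutant 3 was the highest LC10-treated library in 38 of the 40 genes, and mutant 2 was the lowest in 38, with the shares over all genes not given here. After scaling Gbp2 was the 1 gene of the 40 with all LC10-treated mutants (941, 907 and 1301) above all IgG-treated mutants (847, 882 and 901), fewer than the 8.96% of all genes, and none lay below. On the values as deposited no gene of the list lay above and 1, Trim25, lay below, where 68.3% of all genes lay below.

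Other genes of the pathway were looked at from lists chosen with earlier results known. Their counts stand beside 17.2% higher and 15.8% lower of all genes in Smad4 mutants, 17.5% and 15.7% in Alk1 mutants, 12.4% and 9.08% in Eng mutants, and 13.2% and 10.8% in IgG-treated Smad4 mutants. The 21 interferon ligand genes found, among them Ifnb1, were at or near 0 in every library, 12 of them at 0 in all 39, and the highest single value was 6.2. None could be tested. Of 8 genes of receptors and JAK kinases tested, 1 was higher and 2 lower in Smad4 mutants, 2 and 1 in Alk1 mutants, 1 and 3 in Eng mutants, and 0 and 4 in IgG-treated Smad4 mutants. Ifnar1 was at 12409.6, 11777, 10843, 13863 and 12704 in Smad4 mutants, against 14238, 14765, 15134, 15597 and 18101 in wild types (-0.34 ± 0.08, adjusted p = 0.00869), and fell in Eng mutants (-0.15 ± 0.04) and IgG-treated Smad4 mutants (-0.36 ± 0.07) as well, with 0.15 ± 0.08 in Alk1 (adjusted p = 0.166). Ifnar2 fell in the same 3 cohorts. Tmem173, the gene of STING, an adaptor for cytosolic DNA sensing, was higher in mutants of all 4 cohorts, by 0.71 ± 0.12 in Smad4, 0.97 ± 0.10 in Alk1, 0.22 ± 0.06 in Eng and 0.34 ± 0.06 in IgG-treated Smad4 mutants. Among 13 tested genes of the pathways that induce interferon, Tmem173 included, 5 rose in Smad4, 3 in Alk1, 4 in Eng and 2 in IgG-treated Smad4 mutants, and none fell.

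Further interferon-stimulated genes outside the list of 40 were called in both directions, and some of these counts lie near or below the shares of all genes given above. In Smad4 mutants 14 of 47 tested rose and 2 fell, in Eng mutants 10 of 51 rose and none fell, in Alk1 mutants 5 of 46 rose and 13 fell, and in IgG-treated Smad4 mutants 3 of 49 rose and 1 fell. Apol9b, an apolipoprotein L relative induced by interferon in mice, was at 59.8, 162, 58.7, 207 and 95.6 in Smad4 mutants, against 12, 9.2, 10.1, 25.7 and 14.1 in wild types (2.77 ± 0.40, adjusted p = 0.000505), and rose by 1.81 ± 0.34 in Eng mutants (adjusted p = 0.00278). The 13 that fell in Alk1 mutants included Irgm2 (-1.10 ± 0.21) and Gbp4 (-0.94 ± 0.23), GTPases known for induction by interferon gamma. Of 13 MHC class I presentation genes tested, 2 rose in Smad4 mutants and 1 in Eng mutants, and 1 fell in Alk1 mutants. Markers of plasmacytoid dendritic cells, which are strong producers of interferon, were higher for 1 and lower for 1 of 4 tested in Smad4 mutants, higher for 1 of 4 in Alk1 mutants, and not called in Eng mutants. Ifit3b is a close relative of Ifit3, so its reads may be shared with that gene; it was at 1.98 ± 0.45 in Smad4 (adjusted p = 0.00705) and 2.05 ± 0.48 in Eng (adjusted p = 0.00947).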

How the data were processed

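Per the labels, brain endothelial cells were captured on PECAM beads and libraries were made with a TruSeq kit; the submitters' processing notes name build mm10, while no label or file names the aligner, the counter or the normalisation. The values in the 5 deposited tables are treated as a normalised signal per gene made by the authors, since they are not whole numbers and whole reads could not be recovered. The labels call them raw counts, but count models were not used. Each table has 24972 rows. Rows with date-converted or repeated gene names (26) were left out. Of the LC10 columns, 3 matched no sample and were not used. Columns of the untreated tables show a group but not which sample.

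A gene entered a test when 5 libraries of its cohort (3 for IgG and LC10) reached 20. The test was limma 3.58.1 with a trend, in R 4.3.3, on log2(value + 2), the scale of all fold changes, and genes were called at a Benjamini-Hochberg adjusted p below 0.05. Fits were checked on simulated data. Each untreated cohort was fitted alone; the LC10 libraries entered the IgG fit as a group of their own, for the spread only. Alternatives were other pseudocounts, filters, scalings, marker levels or library codes as terms, array weights, and leaving out each library. Differences between cohorts came from 1 fit over their libraries. No library pair was identical (highest correlation 0.9909). Loci and exon lengths came from GENCODE M21 (mm10). Genes given with full statistics were up to 4 rises and 4 falls per comparison and 10 fixed genes. The 40 genes, the other lists and the tests were chosen with earlier results of these data known, and leaving out Smad4 mutants 2 and 4 or keeping a single code was added after the values were seen. Python 3.11.15 with pandas 2.3.3 and numpy 2.4.6 was used for the rest. Some results are not reported here.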

Additional observations from a re-analysis of the deposited data

Results flagged for a closer look

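Among 238 sets, each 1 gene or the score in 1 group of 5 libraries, 13 held a library farther from the others than the critical gap for outliers allows. Chance alone gives about 1 in 20 such sets, and the count of 13 is near that share. Sets of 1 group share their libraries, so they are not independent, and the share over all sets does not describe any single group. Eng wild type 5 stood above the other Eng wild types in 8 of them: Trim25 (13861.0), Ifi35 (1669.8), Parp12 (3281.3), Gbp2 (2685.1), Gbp7 (5765.7), Psmb8 (1098.0), Psmb9 (461.5) and Tap1 (3513.2). In the Alk1 mutants, mutant 3 was low for Oasl2 (626.4) and Oas2 (61.9) and mutant 1 high for Samd9l (3887.5). In wild types, Trim25 was high in Alk1 wild type 1 (9750.2) and Parp12 low in Smad4 wild type 1 (1032.5).

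The Smad4 and Alk1 effects differed by the test of the difference itself (limma, adjusted p below 0.05) for 18 genes, all with the larger value in Smad4. In log2 units the differences were 0.78 for Ifih1, 0.48 for Ddx58 and 1.12 for Dhx58 among sensors, and 1.48 for Irf7, 0.82 for Irf9 and 0.71 for Stat2 among regulators. Effectors differed by 1.83 (Ifit1), 1.61 (Ifit3), 1.73 (Isg15), 1.19 (Cmpk2), 1.57 (Oasl2), 1.23 (Oas1a), 1.49 (Ifi44) and 1.27 (Rtp4). The others were Parp9 (0.64), Dtx3l (1.17), Gbp3 (0.84) and Tap1 (1.01). The Alk1 effect was below the Eng effect for Ifit1 (-1.62), Ifit3 (-1.76), Mx2 (-1.13), Dtx3l (-0.70) and Gbp3 (-0.84), a count that single libraries moved between 1 and 27.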

How the results depend on the processing

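The files give no read depth, so low genes such as Oas3 and Zbp1 have no counting interval and only their spread between libraries. Of the values that sum up the list, under alternatives other than leaving a library out, 165 stayed within 1.5 times of the count or within the spread and 22 did not. For the untreated cohorts no paired analysis was possible because their columns could be tied to a group but not to a sample, so running numbers in some headers were not used. In the antibody cohort equal replicate numbers did not go together (correlations of deviations from group means 0.043, 0.016 and -0.067). There the replicate block gave 2 genes higher, with 14.1% of all genes higher. A fit of libraries without a code could not be made for Eng or for differences with Eng. The cause of each change below was not tested.

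Shares in brackets are of all genes called in the same direction in the same fit. With the neuron and glia level in the fit, 7 genes were higher in Smad4 (8.49%), 5 lower in Alk1 (16.9%) and 0 higher in IgG-treated Smad4 mutants (6.57%). In that IgG fit Ifih1 was at 0.01 and Gbp3 at 0.03. With the microglia level 0 were higher under IgG (2.46%), and in Alk1 Ifit1 was at 0.16, Irf7 at 0.07 and Parp14 at 0.08. Array weights gave 31 higher in Eng (14.3%), and 5 higher (20.9%) and 1 lower (19.9%) under IgG. In Alk1 they put Ifit1 at 0.05, Isg15 at 0.10, Irf7 at 0.16 and Parp14 at 0.09, and under IgG Ifih1 at 0.01, Psmb8 at 0.11, Gbp3 at 0.10 and Parp14 at 0.03. Quantile normalization put Psmb8 at 0.01 under IgG. Division by the library total gave 5 lower in Alk1 (19.6%), 1 lower for Smad4 minus Eng (5.63%) and 14 lower for Alk1 minus Eng (9.66%). For Alk1 minus Eng, no filter on low values gave 2 lower (4.37%). The 6 IgG libraries alone gave 2 higher (9.67%). The joint fit of the untreated cohorts gave 1 higher in Alk1 (20.3%). Libraries with no code gave 15 higher in Smad4 (9.46%), and in Alk1 0 higher (8.5%), 5 lower (6.26%) and a median of -0.34. Code L210 gave 37 higher in Eng (12.4%). Code L219 gave 20 higher in Alk1 (16.5%) with a median of 0.36. Gbp3 was then at 0.03, Ifit1 at 0.79, Isg15 at 0.64, Irf7 at 0.61, Stat2 at 0.02, Ifih1 at 0.21, Psmb8 at 0.17 and Parp14 at 0.39. Without Smad4 mutants 2 and 4, 2 were lower (7.58%).

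Leaving out each library in turn gave 25 to 33 higher and 1 to 2 lower in Smad4, 1 to 5 lower in Alk1, 12 to 36 higher in Eng, and 0 to 6 higher and 0 to 1 lower under IgG. Of all genes, 13.1% to 20.5% were higher and 10.6% to 19.4% lower in Smad4, and 13% to 17.2% lower in Alk1. In Eng 10.3% to 12.9% were higher, and under IgG 7.35% to 14.8% higher and 5.34% to 12.3% lower. Leaving out 1 library also gave 9 to 27 higher for Smad4 minus Alk1 (6.66% to 9.34% of all genes) and 1 to 27 lower for Alk1 minus Eng (5.22% to 8.92%). Log2 fold changes that turned sign were all uncalled. In Alk1 they were Ifit1 (-0.44 to 0.02), Irf7 (-0.20 to 0.05), Psmb8 (-0.14 to 0.03) and Parp14 (-0.13 to 0.05). Under IgG they were Ifit1 (-0.09 to 0.82), Irf7 (-0.17 to 0.39), Ifih1 (-0.13 to 0.11), Psmb8 (-0.12 to 0.13), Gbp3 (-0.19 to 0.11) and Parp14 (-0.21 to 0.16).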
